A study of Mus musculus with 5 samples.

Results

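The Rab GTPases are the small membrane switches that sort vesicles inside a cell, and 57 of the 23234 gene symbols in the deposited tables are Rab genes. They were taken by name alone, as every symbol made of Rab, a number and at most one further letter and digit. Of the 57 symbols, 55 are current RefSeq symbols and 2 are older names, Rab1 for Rab1a and Rab7l1 for Rab29. The data are 5 RNA-seq libraries of cells sorted from mouse bone marrow (BM), 1 library for each condition. All 5 came from C57BL/6 mice aged 7 weeks that carry 1 copy of the Ym1-Venus reporter (genotype +/Ym1Venus), an allele through which Ym1-expressing cells fluoresce. At 48 h after intravenous LPS, given at 100 µg per mouse, Ly6C+ CD115+ monocytes were sorted as Venus+ cells (Ym1+Ly6Chi monocytes) and as Venus- cells (Ym1-Ly6Chi monocytes), and Ly6G+ neutrophils were sorted as well. Untreated mice gave the naïve monocytes, which were Venus- cells, and the naïve neutrophils. The sources used here do not give the number of mice behind a library.

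Rab proteins are anchored in membranes by lipid tails and switch between a GTP-bound form, which recruits tethers, motors and fusion factors, and a GDP-bound form, which is taken back to the cytosol. Each Rab marks certain compartments, so that Rab5 proteins define early endosomes, Rab7 late endosomes and lysosomes, Rab11 recycling endosomes, and Rab27a and Rab3 proteins granules that are ready for release. Both cell types here are phagocytes, and neutrophils also store antimicrobial proteins in several kinds of granules whose docking needs Rab27a.

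Values are FPKM, fragments per kilobase of transcript scaled to the size of the library, which are scaled by length and can be compared between genes. Where 5 values follow a gene, they are those of Ym1+Ly6Chi monocytes, of Ym1-Ly6Chi monocytes, of naïve monocytes, of neutrophils after LPS and of naïve neutrophils, in this order. Differences are of log2(FPKM + 1) over genes whose FPKM reached 1 in one or both libraries of a pair, a scale that understates the change of low genes, and a gene was counted as higher or lower from 2-fold on that scale. With 1 library per condition no difference has a replicate check or a p-value. Intervals are exact 95% intervals for counting error alone, from rough estimates of fragment numbers. Estimated depth was highest for the Ym1+ library, and the other 4 had 44.7% to 97.2% of it. Summed FPKM of 6 monocyte markers was 1399 to 1870 in the monocyte libraries and 24.8 to 40.0 in the neutrophil libraries, and that of 9 neutrophil markers was 1304 to 14032 and 282170 to 292415. Marker sums of other cell types were at most 54.5 (platelet), 40.8 (dendritic cell), 29.9 (eosinophil), 24.9 (erythroid), 23.1 (T or NK cell), 15.4 (B cell) and 3.41 (mast cell or basophil). In such bulk samples, fewer cells of a type and less RNA per cell cannot be told apart.

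Of the 57 Rab genes, 42 reached an FPKM of 1 in at least 1 library, 34 did so in all 5, and 27 had an FPKM of 10 or more in all 5. The other 15 never reached 1. Rab17, Rab25, Rab30, Rab33a and Rab40b were listed at 0 in all 5 libraries, Rab3b, Rab26 and Rab39b were listed at 0 in 4 of them, and Rab3c, Rab4a, Rab6b, Rab9b, Rab15, Rab27b and Rab34 had traces. Together the Rab genes took 0.324% to 0.358% of all FPKM of a library, and this share did not separate monocytes (0.358%, 0.324% and 0.351%) from neutrophils (0.324% and 0.352%).

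The most abundant Rab gene was Rab7, which drives traffic to late endosomes, lysosomes and maturing phagosomes. Its FPKM was 357, 301, 348, 464 and 503, which is 16.4% to 20.1% of the Rab FPKM of a library, and it ranked between place 116 and place 293 among all genes. Rab5c, one of 3 Rab5 proteins of early endosomes, followed with 235, 214, 191, 250.3 and 185. Both were thus high in every library, with no more than a 1.67-fold range for Rab7 and 1.35-fold for Rab5c as deposited. These ranges depend on the scaling. When libraries were set level by their typical gene (median-of-ratios scaling), naïve neutrophils exceeded naïve monocytes by 1.37 for Rab7 and 0.79 for Rab5c on the log2 scale. Neutrophils after LPS then exceeded Ym1-Ly6Chi monocytes by 1.44 and 1.03. The 10 genes of highest mean level also included Rab8a, which carries vesicles to the plasma membrane, at 134, 122, 109.8, 131 and 130.2. Rab1b and Rab1, which act between the ER and the Golgi, had an FPKM of 117, 121, 121, 109.9 and 110.5 and of 107, 111, 76.4, 92.1 and 61.8. As deposited, Rab1b had the narrowest range of all 42 genes, 1.10-fold, while Rab1 was lower in the naïve library than after LPS in both lineages. Rab2a, another ER-Golgi Rab, stood at 55.7, 54.3, 58.1, 84.7 and 81.7, Rab35, which recycles cargo to the surface, at 64.9, 66.2, 60.2, 71.8 and 63.2, and Rab4b, of rapid recycling, at 55.6, 60.6, 54.6, 104 and 85.9. Rab27a and Rab32 complete this group and are described with the granule and lysosome-related Rab genes. Over the 5 libraries as deposited, 22 of the 42 genes stayed within a 2-fold range of FPKM and 7 within 1.5-fold, namely Rab1b, Rab5a, Rab5c, Rab8a, Rab10, Rab22a and Rab35.

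**Figure D1:**
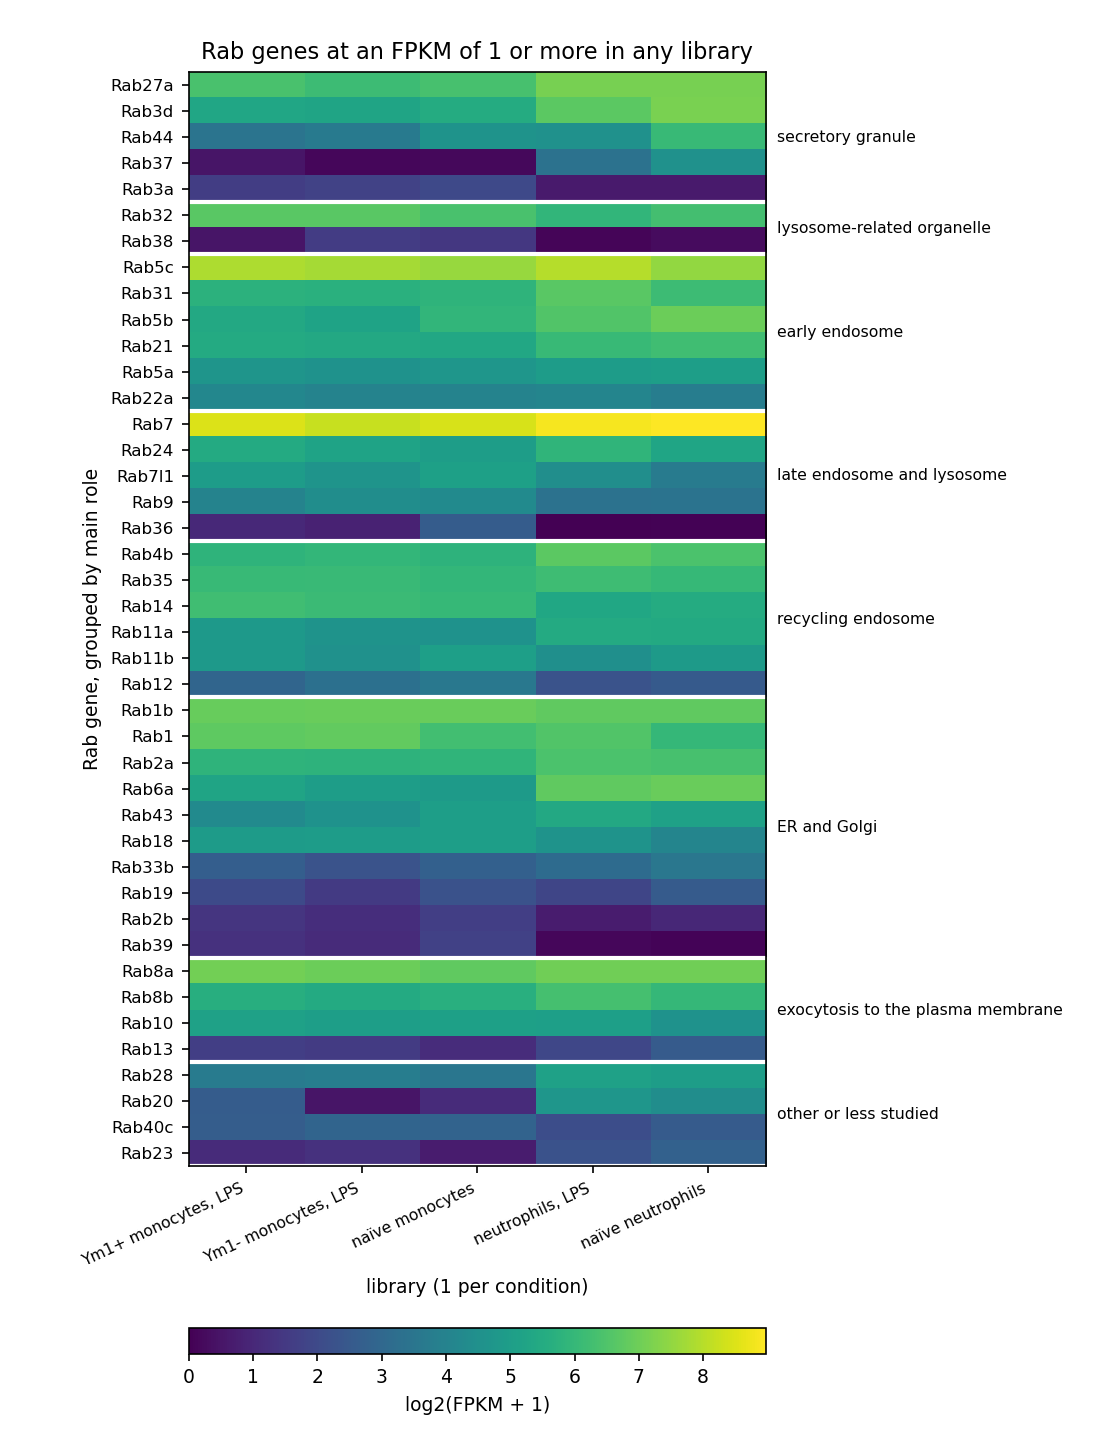
Levels of the 42 Rab genes at an FPKM of 1 or more in any library, as log2(FPKM + 1) from dark (0) to yellow, with 1 column per library and rows grouped by main role. Rab7 is the brightest row in all 5 columns, and Rab37, Rab20, Rab6a and Rab3d are brighter in the 2 neutrophil columns than in the 3 monocyte columns.

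The first question was which Rab genes set neutrophils apart from monocytes. Of the 42 genes, 19 had both neutrophil libraries above all 3 monocyte libraries, against 17.3% of all 11267 genes at an FPKM of 1 or more, and 13 had both below, against 59.5% of all genes. The neutrophil libraries devote 27.7% (LPS) and 30.0% (naïve) of their FPKM to S100a8 and S100a9, the monocyte libraries 0.172% to 2.39%. All FPKM summed to 775532 and 711643 in these neutrophil libraries and to 536819 to 567382 in the monocyte libraries. The part of this load in the values of other genes was not tested. With median-of-ratios scaling, which sets the libraries level by their typical gene and was applied to these counts after the data were seen, 29 Rab genes lay above (background 34.5%), the 19 among them, and 4 lay below (background 36.9%), namely Rab3a, Rab36, Rab38 and Rab39. The 19 genes above under both scalings include Rab27a, Rab3d and Rab37 of granules, Rab5a, Rab5b, Rab21 and Rab31 of early endosomes, Rab7, Rab11a and Rab4b of later and recycling compartments, and Rab6a and Rab2a of the Golgi.

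In naïve neutrophils against naïve monocytes, 9 of 42 Rab genes were higher by 2-fold or more and 6 were lower, beside 10.8% and 42.7% of 10944 genes. The median difference was 0.26 for the Rab genes and -0.79 for all genes, and 34 of the 42 lay above the latter. With median-of-ratios scaling the median of all genes was -0.08 and that of the Rab genes 1.03, with 21 higher and 2 lower beside 21.9% and 24.1% of all genes. After LPS, in neutrophils against Ym1-Ly6Chi monocytes, 7 of 41 were higher and 4 lower, beside 11% and 40.8% of 10676 genes. The medians were 0.32 for the Rab genes and -0.74 for all genes, and with median-of-ratios scaling 1.03 and -0.05, with 21 higher and 1 lower beside 21.6% and 21.2%. Among all genes called in these pairs the share called higher was 20.2% and 21.2% as deposited and 47.6% and 50.5% with median-of-ratios scaling. In both pairs and under both scalings the Rab genes thus lay above the typical gene, 33 or 34 of them each time.

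The naïve pair and the LPS pair share no library. Of 41 genes measured in both, 7 were higher by 2-fold or more in both, namely Rab3d, Rab5b, Rab6a, Rab20, Rab23, Rab28 and Rab37, and these 7 were so under both scalings. Rab3a, Rab12 and Rab38 were lower in both as deposited and 0 genes were so with median-of-ratios scaling. Across the 41 genes the 2 sets of differences had a Pearson r of 0.91, and across 10397 genes r was 0.88, as a description of libraries that share cell type and marker load.

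**Figure D2:**
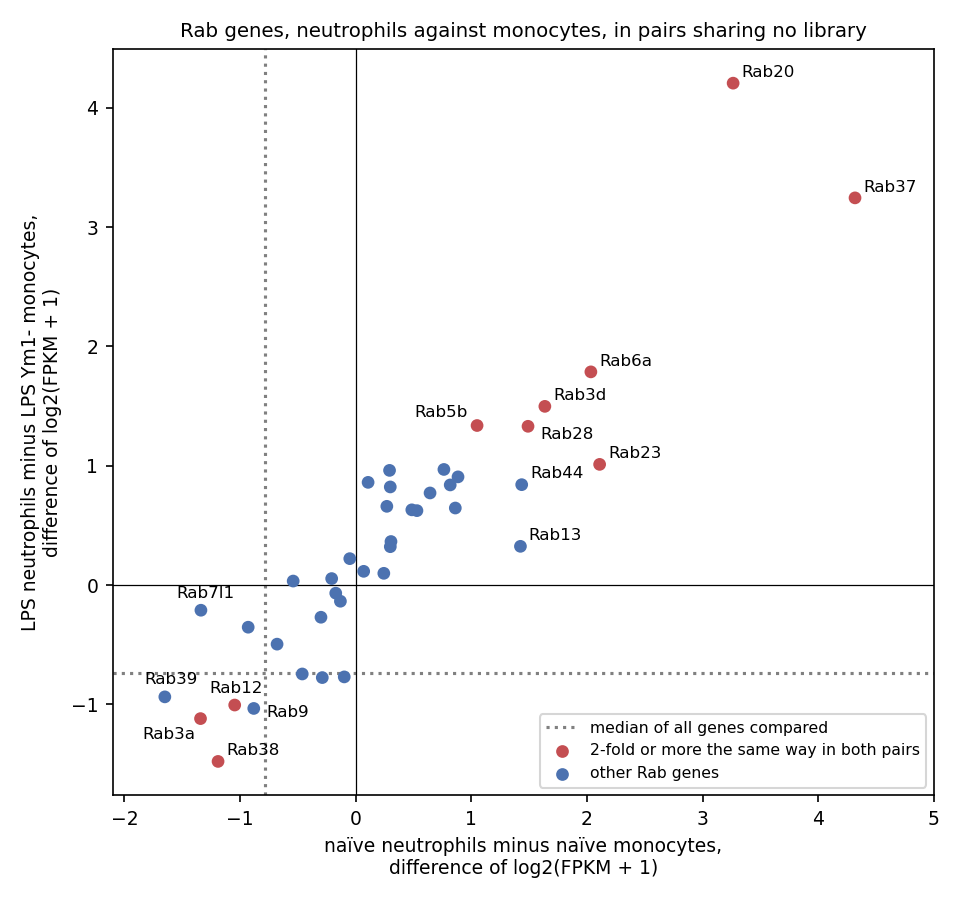
Difference of log2(FPKM + 1) between neutrophils and monocytes for 41 Rab genes, in naïve mice on the x axis and after LPS (against Ym1- monocytes) on the y axis, with dotted lines at the medians of all genes, -0.79 and -0.74. Rab20 and Rab37 lie farthest from 0 in both pairs, and the 10 red points, named on the plot, are 2-fold or more apart the same way in both.

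Among the Rab genes of secretory granules, Rab27a docks granules at the plasma membrane through Slp and Munc13-4 proteins. Its FPKM was 82.5, 70.4, 82.3, 139 and 140.4, so that both neutrophil libraries lay above all monocyte libraries. The FPKM ratio was 1.71 in the naïve pair, with a counting interval of 1.61 to 1.81, and 1.97 in the LPS pair, with an interval of 1.83 to 2.12. Its paralog Rab27b had 0.325 in naïve neutrophils and at most 0.0697 elsewhere, so Rab27a held at least 99.8% of the FPKM of both. Rab3d, found on secretory granules of exocrine and blood cells, had an FPKM of 38.3, 36.4, 45.3, 105 and 143. In the naïve pair it was 1.64 higher on the log2 scale (ratio 3.16, interval 2.95 to 3.37), and in the LPS pair it differed by 1.498 (ratio 2.87, interval 2.63 to 3.14). Rab3a, best known for synaptic vesicles, went the other way with 2.07, 2.41, 2.94, 0.570 and 0.553, a difference of -1.34 in the naïve pair and -1.12 in the LPS pair. Within a library, where scaling has no part, Rab3a made up 5.14% to 6.20% of the FPKM of Rab3a and Rab3d in monocytes and 0.386% to 0.542% in neutrophils.

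Rab37, reported on granules of mast cells and in the release of cytokines, was the granule gene farthest apart between the lineages. It had an FPKM of 0.432, 0.107, 0.153, 9.49 and 22.0, which places both neutrophil libraries well above the 3 monocyte libraries. The log2 difference was 4.32 in the naïve pair and 3.24 in the LPS pair. Monocyte values rest on an estimated 1.18 to 10.6 fragments, so the FPKM ratio of 144 in the naïve pair has a counting interval of 46.9 to 1408. Rab44, a large atypical Rab reported in mast cells and osteoclasts, had 9.91, 12.1, 23.6, 22.4 and 65.6. Naïve neutrophils exceeded naïve monocytes by 1.44 on the log2 scale (ratio 2.78, interval 2.54 to 3.04), and the LPS pair differed by 0.84. Neutrophils after LPS lay below naïve monocytes for this gene, so the lineages overlap as deposited. Summed FPKM of 5 mast cell and basophil markers was 1.24 to 3.41 in the 5 libraries and was highest in naïve monocytes. In naïve neutrophils, where Rab37 and Rab44 were highest, it was 2.51 with 0 of the 5 listed at 0. Prss34 (0.873) and Fcer1a (0.119) were highest in naïve neutrophils. Mcpt8 (2.39), Cpa3 (0.487) and Ms4a2 (0.377) were highest in naïve monocytes. The part of mast cells and basophils in the Rab37 and Rab44 values was not tested.

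Of the 9 genes on the granule list, 5 could be compared between lineages. In the naïve pair Rab3d, Rab37 and Rab44 were higher and Rab3a lower, with a list median of 1.44, and in the LPS pair Rab3d and Rab37 were higher and Rab3a lower, with a median of 0.97. With median-of-ratios scaling 4 of the 5, Rab27a among them, were higher and 0 lower in each pair. Of all genes as deposited, 10.8% were higher and 42.7% lower in the naïve pair (median -0.79). In the LPS pair 11% and 40.8% were (median -0.74). With median-of-ratios scaling these shares were 21.9% and 24.1% in the naïve pair and 21.6% and 21.2% in the LPS pair. As a share of the Rab FPKM of a library, which no scaling of that library can move, the granule genes took 6.76%, 6.61% and 8.19% in the monocyte libraries, 11% in neutrophils after LPS and 14.8% in naïve neutrophils. Both neutrophil shares lay above all 3 monocyte shares. Rab32 and Rab38, which serve lysosome-related organelles such as melanosomes, together went the other way with 5.19%, 5.59%, 4.54%, 2.34% and 3.13%. Nearly all of this was Rab32, at an FPKM of 102, 101, 83.8, 58.7 and 78.2, which differed by -0.77 in the LPS pair as deposited and by 0.04 with median-of-ratios scaling. Rab38, its close relative, had 0.417, 2.02, 1.77, 0.0860 and 0.214, and both neutrophil libraries lay below all 3 monocyte libraries. These Rab38 values rest on few fragments, an estimated 6.29 in Ym1+ monocytes, 1.05 in neutrophils after LPS and 3.14 in naïve neutrophils.

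**Figure D3:**
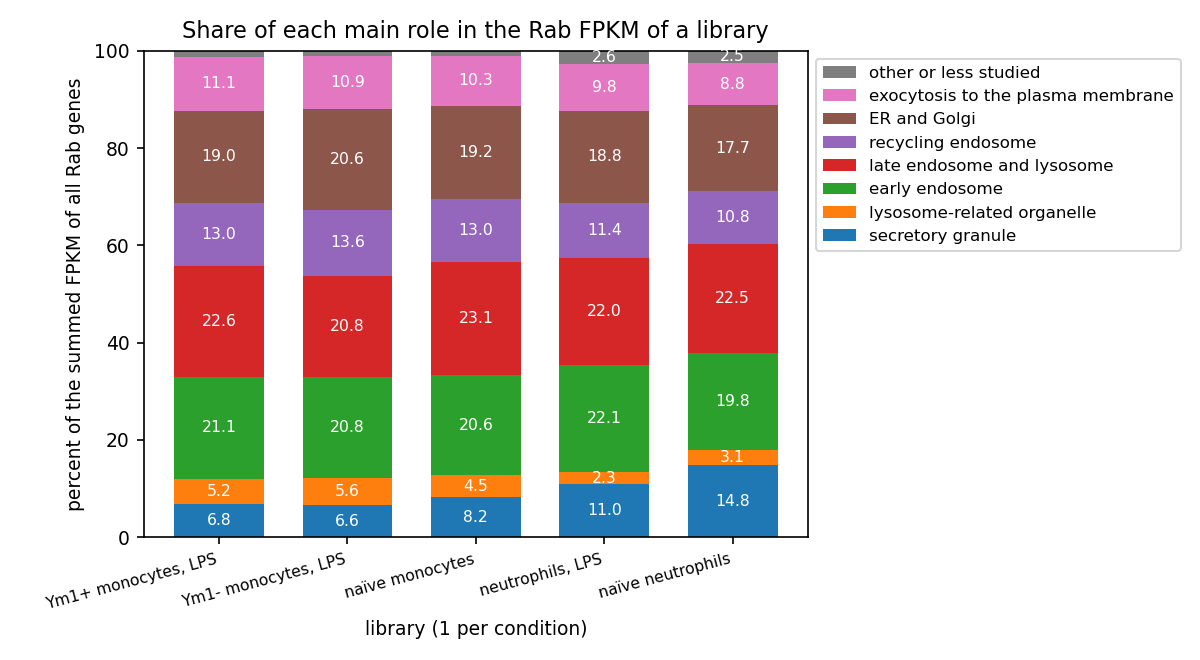
Stacked bars of the percent of the summed Rab FPKM held by each of 8 main roles, with 1 bar per library. The secretory granule segment grows from 6.61% to 8.19% in monocytes to 11% and 14.8% in neutrophils, while the early and late endosome segments stay between 19.8% and 23.1% in all 5.

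The other main group was the Rab genes of endosomes and phagosomes. The phagosome list holds 19 genes, 18 of which were compared, and it took 60.4%, 58.9%, 60.3%, 57.5% and 56.2% of the Rab FPKM. In the naïve pair Rab5b and Rab20 were higher and Rab39 lower, with a list median of 0.09, and in the LPS pair Rab5b and Rab20 were higher and Rab9 lower, with a median of 0.29. With median-of-ratios scaling 8 were higher and 1 lower in the naïve pair, and 10 and 0 in the LPS pair. Of all genes as deposited, 10.8% were higher and 42.7% lower in the naïve pair (median -0.79). In the LPS pair 11% and 40.8% were (median -0.74). With median-of-ratios scaling these shares were 21.9% and 24.1% in the naïve pair and 21.6% and 21.2% in the LPS pair.

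Rab20, which acts in endosome and phagosome maturation and is known as a target of interferon-gamma and of hypoxia, was the member farthest apart in the LPS pair. Its FPKM was 5.16, 0.412, 1.17, 25.1 and 19.9, so that both neutrophil libraries stood above the monocyte libraries and the Ym1+ library stood above the other monocytes. The difference was 3.26 in the naïve pair (ratio 16.9, interval 8.88 to 35.0) and 4.21 in the LPS pair (ratio 60.8, interval 20.4 to 619). The Ym1- value rests on an estimated 2.45 fragments.

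The promoters of Rab20 and Rab3d, from 250 bases before to 50 bases after the start site in RefSeq, are printed with GC boxes in capitals. They were chosen by name as 1 phagosome and 1 granule gene of the 7 genes higher in both pairs, which also include Rab5b and Rab37 of those lists. Coordinates are of GRCm38.p6, not of the build of the tables, and both genes lie on the minus strand, at chr8:11478591-11478890 for Rab20 and chr9:21918134-21918433 for Rab3d.
Rab20: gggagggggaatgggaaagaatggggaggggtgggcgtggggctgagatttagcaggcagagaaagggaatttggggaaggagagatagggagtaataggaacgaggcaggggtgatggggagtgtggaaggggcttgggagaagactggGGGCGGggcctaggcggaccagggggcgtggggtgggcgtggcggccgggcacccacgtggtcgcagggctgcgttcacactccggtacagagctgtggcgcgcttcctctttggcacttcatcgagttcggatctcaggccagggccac
Rab3d: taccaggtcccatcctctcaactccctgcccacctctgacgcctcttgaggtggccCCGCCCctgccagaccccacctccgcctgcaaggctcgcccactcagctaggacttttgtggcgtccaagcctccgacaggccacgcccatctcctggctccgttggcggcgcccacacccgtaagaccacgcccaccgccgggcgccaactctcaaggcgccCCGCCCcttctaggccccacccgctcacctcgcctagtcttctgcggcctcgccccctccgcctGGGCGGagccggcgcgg
RefSeq promoters were at hand for 47 of the 57 genes (59 entries) and for 6 of the 7 genes higher in both pairs, all but Rab37. The letters TTGCNNAA of C/EBP sites and GAGGAAGT of PU.1 sites, both factors of myeloid cells, were searched on both strands, and neither sequence above holds them. Of all 32851 promoters, 10.8% hold the first and 3.20% the second, against 4 (6.78%) and 2 (3.39%) of the 59 Rab promoters. The GC box GGGCGG was added after those 2 motifs had been searched, and occurs in 67.8% of Rab promoters and 35.7% of all, beside a median GC content of 61.3% and 52.7%. The Rab20 window has 1 GC box and a GC content of 64.3%, and the Rab3d window has 3 and 71%, with no match of another motif to overlap them.

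Rab5b, an early endosome Rab like Rab5a and Rab5c, had an FPKM of 41.9, 36.2, 59.2, 93.1 and 124, higher in both neutrophil libraries than in all monocyte libraries. It differed by 1.05 in the naïve pair and 1.34 in the LPS pair, while Rab5c differed by -0.05 (0.79 with median-of-ratios scaling) and 0.22 and Rab5a, at 24.8, 23.0, 25.5, 29.9 and 31.8, by 0.31 and 0.37. Within a library Rab5b made up 14.5% to 23.6% of the FPKM of Rab5b and Rab5c in monocytes, and 27.1% and 40.1% in neutrophils. Rab21, of integrin endocytosis, had 44.0, 41.7, 40.3, 65.8 and 74.0, and Rab31, of traffic between the Golgi and endosomes, 53.8, 51.1, 56.5, 100.4 and 69.5. Its close relative Rab22a, which acts on early endosomes, had 17.0, 15.3, 14.98, 15.9 and 12.8 and so made up 21.0% to 24.0% of both in monocytes and 13.7% and 15.6% in neutrophils.

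Among late endosome and lysosome genes, Rab7 differed by 0.53 in the naïve pair and 0.62 in the LPS pair, and Rab24, an autophagy Rab, had an FPKM of 43.6, 36.3, 31.3, 57.9 and 37.9. Rab9, which returns receptors from late endosomes to the Golgi, had 15.1, 20.3, 18.6, 9.39 and 9.63, lower in both neutrophil libraries than in monocytes as deposited. With median-of-ratios scaling its difference in the LPS pair went from -1.03 to -0.27. Rab7l1, a partner of the kinase LRRK2 at lysosomes and the Golgi, had 29.9, 23.9, 33.0, 20.5 and 12.5, which is -1.34 in the naïve pair and -0.21 in the LPS pair, where median-of-ratios scaling turned the sign (0.57). Rab36, of late endosome positioning, had 1.03, 0.796 and 5.10 in the monocyte libraries, was listed at 0 in neutrophils after LPS and had 0.0406 in naïve neutrophils, a naïve difference of -2.55.

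Among recycling Rab genes 1 of 6, Rab12, was called in the naïve pair, as lower, beside 42.7% of all genes called lower and 10.8% called higher. Rab11a, the recycling endosome marker, had an FPKM of 27.9, 23.2, 22.8, 44.4 and 42.9, its paralog Rab11b 27.3, 22.1, 32.7, 21.0 and 28.9, and Rab11a made up 41.0% to 51.3% of both in monocytes but 67.9% and 59.7% in neutrophils. Rab14, which links early endosomes, phagosomes and the Golgi, had 74.1, 68.0, 62.9, 40.2 and 45.4, a difference of -0.74 in the LPS pair that was 0.06 with median-of-ratios scaling. Rab12, of transferrin receptor degradation, had 6.61, 8.88, 10.9, 3.92 and 4.78 and differed by -1.05 and -1.005, or by -0.31 in each pair with median-of-ratios scaling. Reads of 5 Rab pseudogenes known to RefSeq, of Rab5a, Rab7, Rab9b and Rab11b, could have been shared with their parent genes, so those values are uncertain to that extent.

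Of the ER and Golgi genes, Rab6a, which works in retrograde and secretory traffic at the Golgi, had an FPKM of 36.4, 31.2, 28.7, 110.2 and 121. Both neutrophil libraries stood above all monocyte libraries, by 2.03 in the naïve pair (ratio 4.20, interval 3.85 to 4.61) and 1.79 in the LPS pair (ratio 3.53, interval 3.18 to 3.91). Rab43, a Golgi Rab, had 18.6, 22.7, 32.0, 42.0 and 34.5, Rab18, of lipid droplets and the ER, had 29.3, 30.1, 31.3, 23.3 and 16.0, and Rab33b, of autophagy at the Golgi, had 5.49, 3.92, 5.67, 7.80 and 10.8. The Golgi genes Rab19 (1.91 to 4.92), Rab2b (0.601 to 2.20) and Rab39 (1.45, 1.16, 2.36, 0.128 and 0.0710) were low throughout. Rab39, tied to phagosome acidification, was below in both neutrophil libraries under both scalings.

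Among exocytic Rab genes, Rab8b, close to Rab8a, had an FPKM of 49.0, 44.1, 49.998, 78.7 and 61.7, Rab10, of transport to the surface, 34.1, 32.1, 33.7, 32.9 and 22.8, and Rab13, of tight junctions and cell migration, 2.20, 1.97, 1.23, 2.72 and 4.98. Rab13 differed by 1.42 in the naïve pair and 0.32 in the LPS pair. Less studied members included 2 that stood apart between lineages. Rab28, linked to photoreceptor upkeep, had 12.5, 12.8, 10.4, 33.8 and 31.1, a difference of 1.49 and 1.33, and Rab23, known from ciliary Hedgehog signalling, had 1.14, 1.40, 0.591, 3.84 and 5.87, a difference of 2.11 and 1.012. Rab40c, a ubiquitin ligase adaptor, had 5.28, 6.42, 6.32, 3.34 and 4.99.

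**Figure D4:**
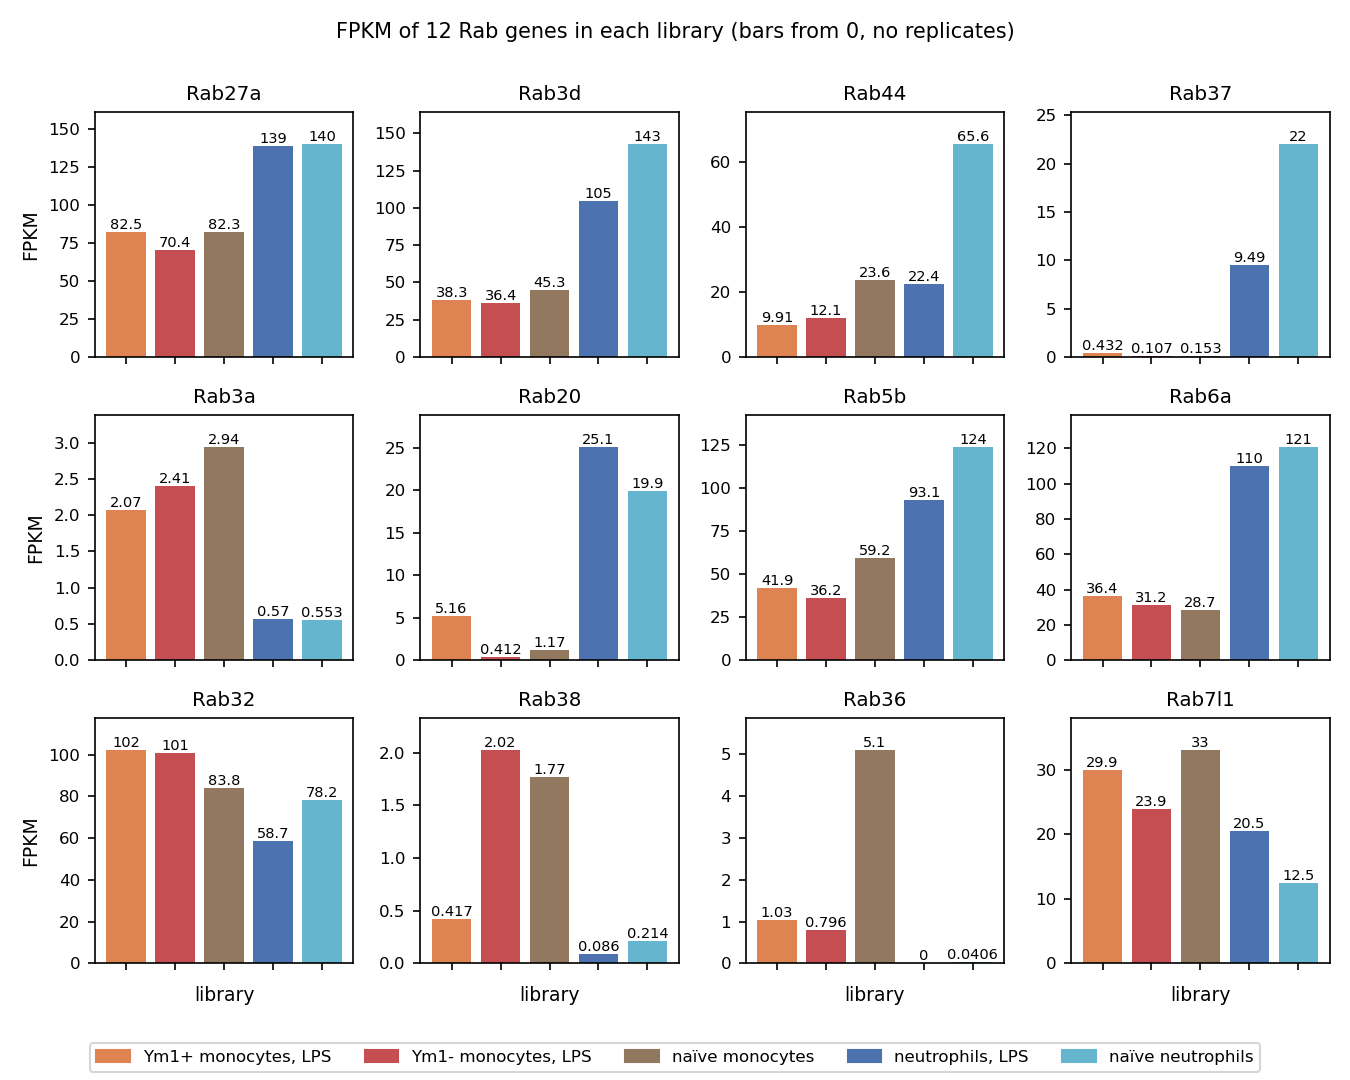
FPKM of 12 Rab genes as bars from 0, with 1 bar per library, the value above each bar, and a linear axis of its own for each gene. Rab27a, Rab3d, Rab37, Rab20, Rab5b and Rab6a are highest in the neutrophil libraries, Rab44 in naïve neutrophils, and Rab36 in naïve monocytes.

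The second question was what LPS did at 48 h, first in neutrophils. Of 38 Rab genes compared between neutrophils after LPS and naïve neutrophils, 0 were higher by 2-fold and 2 were lower, beside 8.96% and 5.35% of 9583 genes, and the median was -0.02 for Rab genes and 0.07 for all genes. The 2 were granule genes. Rab44 had an FPKM of 22.4 after LPS and 65.6 in naïve neutrophils, a difference of -1.51 (ratio 0.341, interval 0.313 to 0.371), at percentile 1.73 of all genes compared. Rab37 had 9.49 and 22.0, a difference of -1.13 (ratio 0.431, interval 0.363 to 0.510). Rab3d, at 105 and 143, differed by -0.44, whereas Rab27a, at 139 and 140.4, differed by -0.02. The 4 granule genes compared had a median of -0.79, and the 17 phagosome genes compared a median of 0.05 with 0 called either way. The 9 neutrophil markers summed to 282170 after LPS and 292415 in naïve neutrophils, with Retnlg lower after LPS (5157 against 12795) and Cd177 higher (2399 against 1492), and the 5 platelet markers summed to 5.97 and 54.5. The part of these in the lower Rab44 and Rab37 values was not tested.

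Rab genes of several roles differed by less than 2-fold between neutrophils after LPS and naïve neutrophils. Rab7l1 differed by 0.68, Rab24 by 0.60, Rab1 by 0.57, Rab31 by 0.53, Rab18 by 0.52, Rab10 by 0.51, Rab5c by 0.44 and Rab8b by 0.35. On the lower side Rab19 differed by -0.70, Rab13 by -0.68, Rab23 by -0.50, Rab11b by -0.44, Rab33b by -0.42, Rab5b by -0.41 and Rab32 by -0.41. These are descriptions of 2 libraries, and the counting intervals of these FPKM ratios all leave out 1 while the spread between mice is unknown.

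In Ym1-Ly6Chi monocytes after LPS against naïve monocytes, 0 of 41 Rab genes were higher and 1 was lower, beside 2.86% and 4.72% of 10714 genes, with medians of -0.07 and -0.0017. In Ym1+Ly6Chi monocytes against the same naïve library, 1 was higher and 2 were lower of 41, beside 2.59% and 4.51% of 10698 genes, with medians of -0.04 and -0.06. Both comparisons share the naïve library, so they are not independent of each other. Rab36 was the gene called lower in both, by -1.76 (ratio 0.156, interval 0.0741 to 0.286) and -1.59 (ratio 0.202, interval 0.129 to 0.299). Rab44 differed by -0.92 in Ym1- and -1.17 in Ym1+ monocytes (ratio 0.420, interval 0.368 to 0.478). The gene called higher was Rab20, by 1.502 in Ym1+ monocytes (ratio 4.39, interval 2.22 to 9.43), while in Ym1- monocytes it differed by -0.62 (ratio interval 0.0299 to 1.32).

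The remaining members stayed under 2-fold in monocytes on the log2(FPKM + 1) scale, which understates low genes such as Rab38 and Rab23. Rab38 differed from naïve monocytes by -0.97 in Ym1+ (ratio 0.235, interval 0.0715 to 0.589) and by 0.13 in Ym1- cells. Rab23 differed by 0.43 in Ym1+ (ratio 1.92, interval 1.08 to 3.79) and by 0.59 in Ym1- cells (ratio 2.37, interval 1.24 to 4.95). Against naïve monocytes, Rab5b differed by -0.69 in Ym1- and -0.49 in Ym1+ cells, Rab43 by -0.48 and -0.75, and Rab1 by 0.54 and 0.48. The 5 dendritic cell markers summed to an FPKM of 0.794 for Ym1+, 10.3 for Ym1- and 40.8 for naïve monocytes. Among them, in the same order, Cd209a was at 0.0746, 0 and 12.7 and H2-Aa at 0.441, 7.91 and 22.5. Rab36 was highest in naïve monocytes, where the sum was highest, and was 1.03 in Ym1+ and 0.796 in Ym1- monocytes (ratio 1.29, interval 0.638 to 2.86). The part of dendritic cells in the Rab36 values was not tested. The granule list gave 0 genes called in Ym1- monocytes (median -0.26) and Rab44 as lower in Ym1+ monocytes (median -0.30). The phagosome list gave 0 called in Ym1- monocytes (median -0.11) and Rab20 as higher in Ym1+ monocytes (median 0.03).

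Between neutrophils and Ym1- monocytes, whose LPS responses share no library, 0 of 37 Rab genes were called the same way in both, 21 had the same sign, and the Pearson r of the responses was 0.32, beside 0.41 over 9074 genes. Rab44 was lower after LPS in neutrophils (-1.51), in Ym1+ monocytes (-1.17) and, under 2-fold, in Ym1- monocytes (-0.92), the latter 2 set against the same naïve library.

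The third question was how the 2 monocyte populations after LPS differ. Between Ym1+Ly6Chi and Ym1-Ly6Chi monocytes 1 of 41 Rab genes was higher and 1 lower, beside 1.38% and 1.18% of 10489 genes, with medians of 0.10 and -0.06. Rab20 stood at 0.412 FPKM for Ym1- and at 5.16 for Ym1+ monocytes, higher by 2.12 (ratio 12.5, interval 4.11 to 129.8), and by 1.98 with median-of-ratios scaling. Rab38, at 2.02 and 0.417 in the same order, differed by -1.09 (ratio 0.206, interval 0.0603 to 0.530), and with median-of-ratios scaling the -0.95 no longer reached 2-fold. All other Rab genes were within 2-fold, among them Rab27a (0.22), Rab7 (0.25), Rab24 (0.26) and Rab11b (0.30). Of the granule list 0 of 4 genes were called (median -0.04), and of the phagosome list Rab20 was called (median 0.13).

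Neutrophil markers were also higher in the Ym1+ library, with a sum of 14032 against 1926. The Rab20 value of Ym1+ monocytes lay 19.3% of the way from Ym1- monocytes to neutrophils after LPS, a position whose Ym1- end rests on an estimated 2.45 fragments, and the 9 neutrophil markers lay 0.0607% (Retnlg) to 6.16% (Mmp8) of the way. The part of neutrophil RNA in the Rab20 value was not tested. Beside the lower Rab38 value, eosinophil markers summed to 29.9 in Ym1- and 1.02 in Ym1+ monocytes and dendritic cell markers to 10.3 and 0.794, while naïve monocytes, with 40.8 for the dendritic cell markers, had Rab38 at 1.77. The part of either was not tested.

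Rab proteins depend on partners, and genes of 5 partner lists were compared in the same way. Each list is to be read against the medians and shares of all genes given above for the lineage pairs. Granule docking and fusion factors had 6 of 16 higher and 2 lower in the naïve pair (median 0.34) and 5 of 14 higher and 1 lower in the LPS pair (median 0.28), or 9 and 1 and 8 and 1 with median-of-ratios scaling. The higher ones in both pairs included Sytl1, a Rab27 effector, at an FPKM of 0.111, 0.497, 0.353, 6.72 and 13.6, Unc13d, which encodes Munc13-4, at 12.8, 11.4, 17.6, 43.3 and 45.9, and the SNARE gene Stx11 at 33.6, 23.6, 34.5, 97.1 and 134. Stx3, another SNARE gene, was lower in neutrophils at 12.2, 10.6, 18.0, 0.697 and 1.47. The prenylation and membrane cycle list had 1 of 8 higher and 2 lower in the naïve pair (median 0.35) and 2 and 2 in the LPS pair (median 0.37), or 5 and 2 in each pair with median-of-ratios scaling. Rabggtb, the beta subunit of the Rab prenyl transferase, had 24.9, 33.5, 20.6, 6.45 and 5.01, and the escort protein gene Chml 5.12, 6.36, 6.43, 0.399 and 0.482.

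Exchange factors, which load Rab proteins with GTP, had 4 of 27 higher and 9 lower in the naïve pair (median 0.17) and 5 of 28 higher and 6 lower in the LPS pair (median -0.03), or 12 and 1 and 13 and 3 with median-of-ratios scaling. Dennd3, the exchange factor of Rab12, was higher in neutrophils at 2.29, 1.80, 1.55, 17.7 and 22.0. Rab12 itself was lower by 2-fold as deposited (-1.05 and -1.005), but by only -0.31 in each pair with median-of-ratios scaling. Dennd1a, of Rab35, had 10.7, 10.4, 20.4, 2.11 and 2.34, while its paralog Dennd1c had 9.02, 7.66, 18.1, 27.1 and 63.4. GTPase-activating proteins, which switch Rab proteins off, had 3 of 31 higher and 8 lower in the naïve pair (median -0.38) and 6 of 31 higher and 8 lower in the LPS pair (median -0.24), or 9 and 5 and 10 and 3 with median-of-ratios scaling. The gene farthest apart was Tbc1d10c at 2.82, 3.71, 4.99, 37.6 and 80.7. Tbc1d9 was lower in both pairs, at 4.96, 3.37, 8.72, 0 and 0.0174. Endosome and lysosome effectors had 2 of 21 higher and 6 lower in the naïve pair (median -0.81) and 3 of 20 higher and 7 lower in the LPS pair (median -0.73), or 3 and 1 and 3 and 2 with median-of-ratios scaling. Of these the Rab11 effector genes Rab11fip1 (6.22, 4.73, 5.62, 19.3 and 26.3) and Rab11fip4 (1.56, 0.799, 2.43, 13 and 15.5) were higher in neutrophils. Another of that family, Rab11fip5 (9.29, 8.33, 5.94, 3.60 and 5.21), was called lower in the LPS pair as deposited. Rabep1 (4.96, 5.32, 6.64, 0.927 and 1.82) and Rabepk (8.71, 11.6, 5.33, 3.71 and 0.534) were lower in both pairs as deposited.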

How the data were processed

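For each of 5 libraries, made with a strand-specific SureSelect kit, the authors deposited 1 table of FPKM by gene. Per the submitters' processing notes, the tools and build were Cufflinks 2.1.1, TopHat2 2.0.8 and mm9; the sources used here do not give the annotation. Such values are not counts and were given no count test. Differences of log2(FPKM + 1), a pseudocount of 1, were computed with Python 3.11.15, numpy 2.4.6 and pandas 2.3.3 in 6 pairs over genes whose FPKM reached 1 in one or both libraries, and counted from 2-fold on. The steps were tested on simulated data. Relative depth was read from the steps of values under an FPKM of 0.15, and fragment numbers, with exact 95% intervals from scipy 1.17.1, rest on GENCODE transcript lengths.

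The Rab genes and the role, granule, phagosome and partner lists were chosen with earlier results of these data known. Named were the 10 highest Rab genes and up to 8 higher and 8 lower per pair that reached an FPKM of 5. Also named were expressed granule and phagosome list members and their paralogs, and up to 3 or 2 partner genes per list. Others, such as Unc13d and Evi5l, were named after their values were seen. The values of 1 partner gene are not reported here. Alternatives were a pseudocount of 0.1, a minimum of 5, no filter, median-of-ratios scaling, a call at 1.5-fold and leaving out genes listed at 0.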

Additional observations from a re-analysis of the deposited data

How the results depend on the processing

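The scaling of the libraries bore most on the counts. With median-of-ratios scaling 21 Rab genes were higher and 2 lower in the naïve lineage pair (9 and 6 as deposited), with a median of 1.03, and 21 were higher and 1 lower in the LPS lineage pair (7 and 4), with a median of 1.03. It left 0 lower between Ym1+ and Ym1- monocytes (1 as deposited). Added after the data were seen, the same scaling gave 29 genes above and 4 below the 3 monocyte libraries in both neutrophil libraries (19 and 13 as deposited). In the naïve lineage pair 9 genes and in the LPS lineage pair 7 genes, none of them called as deposited, took the other sign. With the filter raised to an FPKM of 5, 3 and 2 genes were lower in the naïve and LPS lineage pairs and 0 between Ym1+ and Ym1- monocytes. A pseudocount of 0.1 gave 1 gene higher (Rab23) and 2 lower (Rab20 and Rab36) in Ym1- against naïve monocytes. With a call at 1.5-fold, 14 genes were higher in the naïve lineage pair, 19 higher and 8 lower in the LPS lineage pair, 2 higher and 4 lower in neutrophils after LPS, 1 higher and 6 lower in Ym1- against naïve monocytes, and 5 lower in Ym1+ against naïve monocytes. These are 22 of 104 recomputed counts and medians, and the other 82 stayed within their limits. Of 537 recomputed single values 38 moved, but many of the 537 could not move. A changed filter, or leaving out genes listed at 0, does not alter the difference of a gene that is kept. With median-of-ratios scaling 29 single values moved and 75 did not, and with the pseudocount 9 moved and 95 did not. No called value took the opposite sign.

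No paired analysis was possible because each condition has 1 library and the labels give no replicate numbers, and for the same reason there was no library to leave out within a group. Depth limits the low genes most, such as Rab37 in monocytes (an estimated 1.18 to 10.6 fragments) and Rab20 in the Ym1- library (2.45).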

Other observations

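Some partner genes of Rab proteins that were higher in neutrophils than in monocytes were lower in neutrophils after LPS. The exchange factor Dennd1c was 63.4 in naïve neutrophils and 27.1 after LPS (log2 difference -1.20) and the GTPase-activating protein Tbc1d10c 80.7 and 37.6 (-1.08). Tbc1d23, which acts at the trans-Golgi, was also lower after LPS, at 26.9 and 11.1 (-1.21). As deposited it was not called in either lineage pair, with 14.1, 10.2 and 14.4 in Ym1+, Ym1- and naïve monocytes. Snap29, a SNARE of autophagosome fusion, went the other way with an FPKM of 14.2 in naïve neutrophils and 40.4 after LPS (1.44), as did Rabepk, which binds Rab9, with 0.534 and 3.71. The medians of the 5 lists were -0.32 (prenylation), -0.07 (exchange factors), 0.05 (GTPase-activating proteins), -0.39 (granule docking) and -0.28 (endosome effectors), beside 0.07 for all genes, of which 8.96% were called higher and 5.35% lower.

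In monocytes after LPS, most of the partner genes called were GTPase-activating proteins. Tbc1d8 had an FPKM of 12.1 (Ym1+), 9.89 (Ym1-) and 25.6 (naïve), and Evi5l, related to a Rab11 regulator, 0.927, 1.28 and 4.20. With Rabgap1l they were lower by 2-fold or more in both populations, and Tbc1d9, at 4.96, 3.37 and 8.72, was lower in Ym1- monocytes, so that 4 of 31 genes of this list were called in Ym1- and 3 in Ym1+ monocytes (2 with median-of-ratios scaling), beside 4.72% and 4.51% of all genes called lower. Beside them Rab3il1, an exchange factor, was higher in Ym1- monocytes (6.26 against 2.16 in naïve) and Dennd1c lower (7.66 against 18.1). Between Ym1+ and Ym1- monocytes 0 genes of the 5 lists were called, with list medians from -0.03 to 0.13.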
